A study of Mus musculus with 4 samples.

Results

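Nonclassical monocytes of the lung were taken from a single-cell RNA-sequencing study of mice that overexpress human TNF and of their wildtype littermates. Cells were chosen by raw UMIs (unique molecular identifiers, 1 per captured mRNA molecule). A cell needed 2 or more UMIs of Treml4 and Adgre4 together, at least 1 of Csf1r, fewer than 20 of C1qa, C1qb and C1qc together, fewer than 4 of Siglecf, Krt79, Plet1 and Marco together, and none of Cd3e, Cd79a or Cdh5. The rule found 3397 cells among the 19427 lung barcodes that had 500 or more UMIs and at most 20% mitochondrial UMIs, and the 4 libraries of the series held 29563 such barcodes. Since measured values chose the cells, the levels of these rule genes are given as a description only.

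The TNF+ mice (TNF-Tg) carried a human TNF transgene, and the TNF- mice were littermates without it. All were female C57BL/6 mice of 4 months. Lung and synovium of each genotype gave 1 library apiece, made from tissue pooled within genotype, with 3 to 5 mice per genotype in the lung. There was therefore no biological replicate and no test. Tissue was digested enzymatically and cells were sorted for viability before capture. Intervals are exact 95% intervals that cover counting error only, and a gene was counted as higher or lower past a 2-fold ratio between the 2 lung libraries.

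Monocytes are blood-borne myeloid cells that depend on the CSF1 receptor. Classical, Ly6C-high monocytes enter inflamed tissue through CCR2, whereas nonclassical, Ly6C-low monocytes crawl along the lumen of small vessels, carry CX3CR1, CD43 (Spn) and the Fc receptor FcγRIV (Fcgr4), and need the nuclear receptor NR4A1 to form. The lung, with its dense capillary bed, holds a large marginated pool of them. TNF acts on such cells through NF-kB, whereas type I and type II interferons act through the interferon-stimulated response element (ISRE).

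The lung libraries held 8555 (TNF-) and 11243 (TNF+) barcodes, and the kept ones had a median of 8109 and 9679 UMIs. Between any pair of libraries 5 to 21 barcode sequences were shared, and 0 of the shared barcodes were nonclassical monocytes in both. Levels are given as CPM, the UMIs of a gene summed over the cells and scaled to a total of 1000000. Mouse Tnf stood at 31.97 CPM over the whole TNF- lung library and at 83.4 CPM over the TNF+ one. The human transgene was not in the mouse reference, so it could not serve to check the labels.

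In the TNF- lung, 351 of 8342 kept barcodes were nonclassical monocytes, or 4.21% (3.79 to 4.66%). In the TNF+ lung they were 3046 of 11085, or 27.5% (26.6 to 28.3%). Of barcodes with a Csf1r UMI and none of Cd3e, Cd79a or Cdh5, they made up 36.9% of 950 in TNF- and 65.0% of 4687 in TNF+. The higher share in the TNF+ library was thus seen against all cells and against Csf1r-bearing cells alone. Mice of a genotype were pooled into a single digest and capture, so genotype and library cannot be told apart.

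The 2 sets of cells had like depth, with a median of 9409 UMIs and 3131 genes in TNF- and 10240 UMIs and 3256 genes in TNF+. Treml4 and Adgre4 together had a median of 11 UMIs per cell in TNF- (quartiles 6 and 17) and 20 in TNF+ (quartiles 12.25 and 29). Both genes were detected in 279 TNF- and 2672 TNF+ cells. The 10th percentile was 3 UMIs in TNF- and 6 in TNF+, so TNF- cells lay closer to the threshold.

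**Figure D1:**
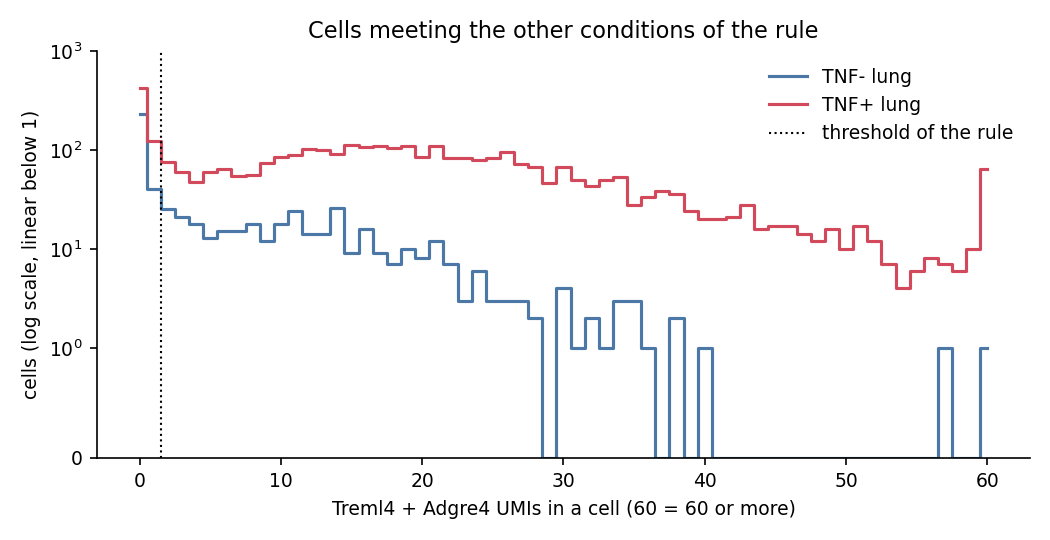
Number of lung cells (y axis, log scale, linear below 1) by their summed Treml4 and Adgre4 UMIs (x axis, 60 stands for 60 or more), among cells that met the other conditions, in TNF- lung (blue) and TNF+ lung (red). The dotted line is the threshold. TNF+ cells have a dip above the threshold and then a broad hump around their median of 20 UMIs. TNF- cells, fewer and with a median of 11, fall from 25 at 2 UMIs to 13 at 5. They rise unevenly to 26 at 14, without a clear gap at the threshold.

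Cells next to the threshold differed from the rest. The 25 TNF- and 75 TNF+ cells with exactly 2 UMIs had Ace, the angiotensin-converting enzyme, at 55.5 and 46.5 CPM and the neutrophil alarmin S100a8 at 6140 and 14098 CPM. The 40 TNF- and 122 TNF+ cells just outside, with 1 UMI, had Ace at 48.1 and 11.3 CPM and S100a8 at 5254 and 3279 CPM. Over all chosen cells the median of S100a8 and S100a9 together was 0 UMIs in both libraries, and 9 TNF- and 55 TNF+ cells with 20 or more of them held 98.1% and 96.9% of these UMIs.

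Markers that the rule did not use fitted the name in both libraries. Ace was at 527 CPM (TNF-) against 418 CPM (TNF+) nonclassical monocytes, against 4.0 to 26.1 CPM in C1q-rich macrophages, alveolar macrophages and T cells of the same libraries. Nr4a1, the transcription factor these cells need, was at 758 and 730 CPM, against 38.4 to 56.4 CPM in those cells. Spn was at 400 and 487 CPM and the integrin Itgal, which serves crawling, at 1062 and 1112 CPM. Cx3cr1, the fractalkine receptor, was at 558 and 620 CPM, but C1q-rich macrophages held it at a like level (700 and 681 CPM). Fcgr4 was at 195 CPM (TNF-) against 112 CPM (TNF+), the lowest ratio of the 4 unused markers (log2 ratio -0.80, interval -0.91 to -0.68).

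**Figure D2:**
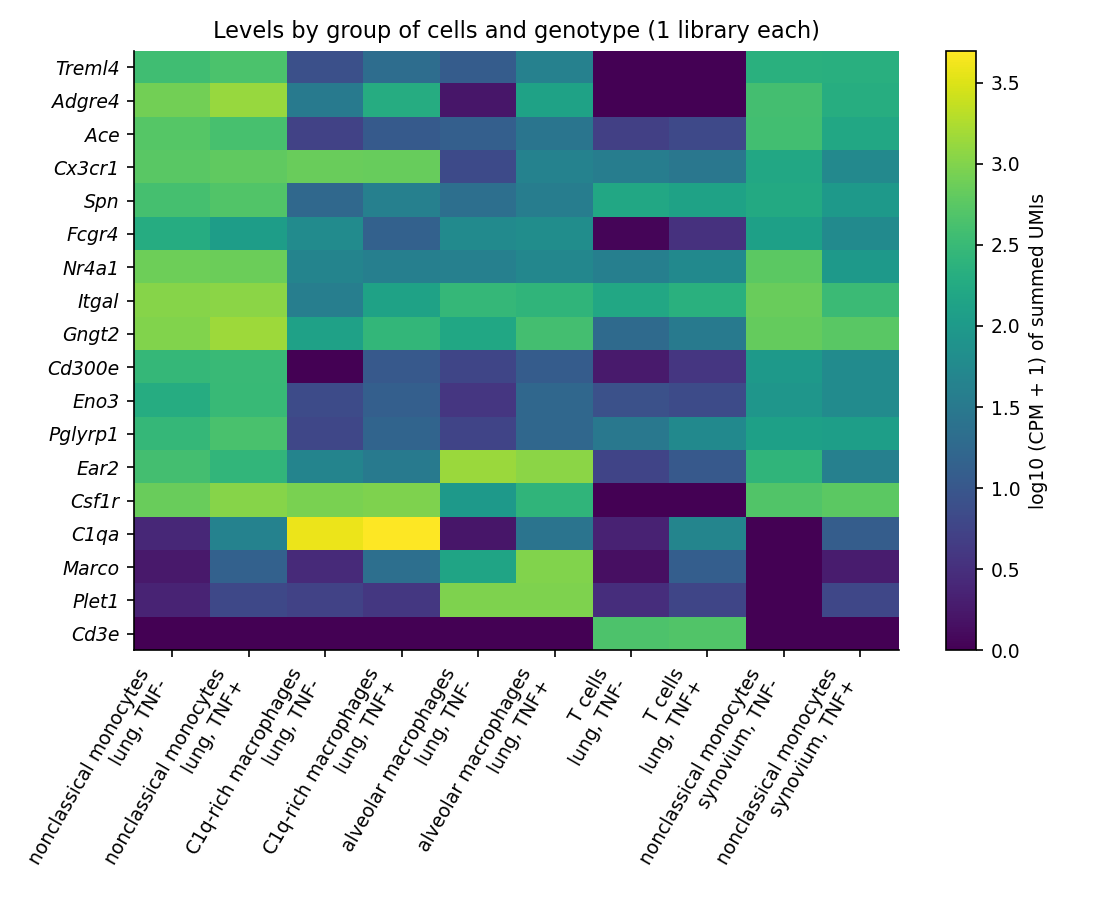
Levels of marker and rule genes (rows) in 5 groups of cells, each in TNF- and TNF+ (columns), as log10 of CPM + 1 of summed UMIs, each column from 1 library. Ace, Nr4a1, Cd300e and Eno3 are bright in lung nonclassical monocytes of both genotypes and dim in macrophages and T cells, and Treml4, Adgre4, Csf1r, C1qa, Marco, Plet1 and Cd3e were used by the rules.

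The wider Ly6C-low programme stood at a like level in the 2 genotypes. Of 28 genes on that list, 1 was at least 2-fold higher in TNF+ and 1 at least 2-fold lower, with a median log2 ratio of 0.04. Among all 12579 genes with 50 or more UMIs over both libraries, 783 (6.22%) were at least 2-fold higher and 781 (6.21%) lower, with a median of -0.03. The higher gene was Cd274, which encodes the checkpoint ligand PD-L1, at 165 CPM (TNF-) against 352 CPM (TNF+). The lower one was Cd36, a scavenger receptor for oxidised lipids, at 526 and 221 CPM. Of 17 survival genes, among them Bcl2 at 473 and 416 CPM, 0 passed 2-fold in either direction.

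Cells differed among themselves by Ly6c2, the classical monocyte antigen. It was undetected in 274 TNF- cells (78.1%) and 2588 TNF+ cells (85.0%), and at 3 or more UMIs in 44 (12.5%) and 197 (6.47%). In TNF- the cells with 3 or more Ly6c2 UMIs, against those with none, had the chemokine receptor Ccr2 at 954 against 227 CPM, the coagulation factor F13a1 at 551 against 34.0 CPM and Ace at 329 against 588 CPM. In TNF+ the same split gave Ccr2 at 494 against 206 CPM, F13a1 at 310 against 1.25 CPM and Ace at 129 against 463 CPM. In both libraries, then, cells with Ly6c2 leaned toward the classical pattern. Over all chosen cells, 8 of 15 classical monocyte markers were at least 2-fold lower in TNF+ and 1, the haemoglobin scavenger Hp, was higher, where 6.21% and 6.22% of all genes were, with a median log2 ratio of -1.29. Cells with 3 or more Ly6c2 UMIs were also deeper, at a median of 15843 UMIs in TNF- and 19635 in TNF+, against 8219.5 and 9702 in cells with none. A rule for classical monocytes found only 9 and 12 lung cells, which carried Sftpc, a surfactant gene of alveolar type 2 cells, at 46330 and 45318 CPM, so they did not serve as a comparison.

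Several secreted and receptor genes were higher across many TNF+ cells. Hp was at 237 CPM (TNF-) against 1302 CPM (TNF+) (log2 ratio 2.46, 2.36 to 2.55). The formyl peptide receptor Fpr1 was at 10.8 and 192 CPM (log2 ratio 4.15, 3.71 to 4.63). Wnt6, a secreted Wnt ligand, was at 3.94 and 110 CPM (log2 ratio 4.80, 4.07 to 5.63). All 3 were spread over many cells, with 50% of their TNF+ UMIs held by 16.97%, 15.2% and 15.8% of cells. Il10, the anti-inflammatory cytokine, was at 3.16 and 126 CPM (log2 ratio 5.32, 4.51 to 6.27), and 4.69% of TNF+ cells held 50% of its UMIs. Hsd17b2, a steroid dehydrogenase, was at 2.89 and 50.2 CPM, and Mmp14, a membrane-bound matrix metalloproteinase, at 5.79 and 78.5 CPM.

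The shares of cells with a UMI were also higher in TNF+ after each cell was thinned to 1000 UMIs, which left out 4 TNF+ cells and 0 TNF- cells. Wnt6 was then seen in 0.285% of TNF- and 11.5% of TNF+ cells (3.99% and 61.4% unthinned), while T cells of the 2 libraries, which should lack it, gave 0% of 657 and 0.524% of 764. Fpr1 was seen in 1.99% and 18.7% (8.26% and 68.4% unthinned), with T cells at 0% and 0.393%. Il10 was seen in 0.285% and 9.53% (2.85% and 32.2% unthinned), with T cells at 0.152% and 0.262%. For a T cell share of 0%, the upper limit of the interval was 0.560% in TNF-. T cells had a median of 9903 UMIs in TNF- and 9693.5 in TNF+. These T cells were required to have no Csf1r, Treml4 or Adgre4 UMI. That left out T cell barcodes that held these monocyte transcripts, so their shares of other monocyte genes may understate the background.

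Other TNF+ signals stood near the share in T cells and are not read as a difference of nonclassical monocytes, while their source was not tested. The B cell attractant Cxcl13 was seen in 50.2% of TNF+ nonclassical monocytes and 51.2% of TNF+ T cells unthinned. C1qa, which the rule capped, was seen in 38.0% and 35.5%. A further set came from very few cells. The lysozyme gene Lyz1 was at 28.7 CPM (TNF-) against 846 CPM (TNF+), but 18 TNF+ cells held 50% of its UMIs, and the elastase Mmp12, at 4.73 and 130 CPM, had 50% in 15 cells. The secretory gene Mucl1 had 0 UMIs in TNF- and 2249 in TNF+, with 50% in 4 cells. It was 73.9-fold higher when TNF- was set to the floor of 3 UMIs, and the lower limit of its log2 ratio was 5.91. The other genes among the 15 highest ratios, Retnla, Layn, Fxyd2, Zmynd15, H2-M2, Dcstamp, Fscn1, Slc6a20a, Gpnmb and the unconventional myosin gene Myo10, had 0 to 11 UMIs in TNF-. Of the 15 lowest, 8 had only 20 to 27 UMIs in TNF-, and the phosphodiesterase gene Pde7b, with 601, was at 158 and 26.8 CPM (log2 ratio -2.56, -2.71 to -2.41).

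**Figure D3:**
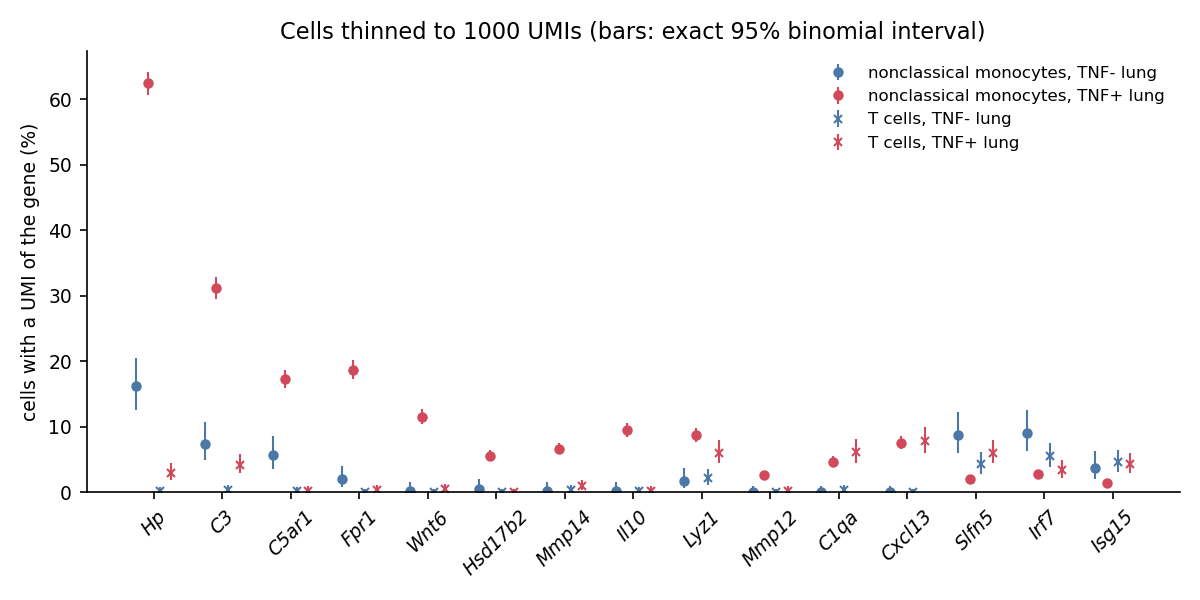
Percent of cells with at least 1 UMI of a gene (y axis) after thinning to 1000 UMIs, in nonclassical monocytes (dots) and T cells (crosses) of TNF- (blue) and TNF+ lung (red), with exact 95% binomial intervals for counting error. Hp, C3, C5ar1, Fpr1, Wnt6, Hsd17b2, Mmp14 and Il10 sit above T cells in TNF+, C1qa and Cxcl13 sit at the T cell level, and Slfn5, Irf7 and Isg15 are lower in TNF+ than in TNF- nonclassical monocytes.

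C3 and C5ar1 were also higher across many TNF+ cells. Complement was the subject of the study. Of 24 complement genes on the list, 9 were at least 2-fold higher in TNF+ and 2 lower, where 6.22% and 6.21% of all genes were, with a median log2 ratio of 0.44, and of the 9 the C1q genes were used by the rule and stood at the T cell level. C3, the central component, was at 116 CPM (TNF-) against 423 CPM (TNF+) (log2 ratio 1.86). C5ar1, the receptor for the C5a fragment, was at 47.1 and 173 CPM (log2 ratio 1.88, 1.66 to 2.10). Both were spread over cells, seen in 48.1% and 90.7% for C3 and in 26.2% and 71.6% for C5ar1 unthinned. T cells gave 3.35% and 23.4% for C3 and 1.07% and 3.01% for C5ar1. Factor B (Cfb), of the alternative pathway, was at 21.8 and 55.5 CPM and properdin (Cfp), which stabilises the alternative convertase, at 38.1 and 104 CPM. Of 83 Cfb UMIs in TNF- and 2141 in TNF+, 13 and 1046 were left without the 2% of cells holding most. The complement receptor subunit Itgam was at 407 and 412 CPM. On the same list T cells had 7 of 19 genes higher and 3 lower (median 0.37), where 3.36% and 5.08% of all genes were. Alveolar macrophages had 9 of 27 higher and 2 lower (median 0.39), where 3.63% and 10.6% were. C1q-rich macrophages had 2 of 24 higher and 3 lower (median 0.01), where 5.56% and 6.60% were. Higher ratios on this list were thus not particular to nonclassical monocytes.

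Nonclassical monocytes held 3.82% of all C3 UMIs of the TNF- library and 21.6% of those of the TNF+ library, while holding 3.98% and 24.8% of all UMIs. C3 was thus carried about in proportion to their UMIs. Cfb was held at 3.83% and 8.67%, in TNF+ below the cells' share of UMIs. C5ar1 was held at 4.26% and 38.6%, Fpr1 at 1.90% and 48.4%, and Il10 at 8.05% and 68.0%, so in TNF+ these 3 were above the cells' share of UMIs. In C1q-rich macrophages C3 was at 83.2 and 1076 CPM and C5ar1 at 289 and 231 CPM, and in alveolar macrophages C3 was at 110 and 503 CPM and C5ar1 at 183 and 122 CPM. The TNF+ difference in C5ar1 seen in nonclassical monocytes was not seen in those macrophages, and this contrast was not tested. C1q-rich macrophages numbered 71 in TNF- and 350 in TNF+, and alveolar macrophages 337 and 620. Neither group had a limit on Treml4 or Adgre4.

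Interferon-stimulated genes were lower in TNF+ nonclassical monocytes. Of 40 genes, 30 were at least 2-fold lower, where 6.21% of all genes were, and 0 were higher, and all 40 had a log2 ratio below 0, with a median of -1.84. Promoter sequence is shown for genes of this list and of the NF-kB list, to show the motifs these 2 groups of genes are known for. Capitals mark the ISRE core (GAAANNGAAA) in Isg15, a ubiquitin-like antiviral protein, and Irgm1, an immunity-related GTPase. They mark the kB motif (GGGANTTTCC) in Nfkbia, the NF-kB inhibitor, and Cxcl2, a neutrophil attractant. All are RefSeq sequences of GRCm38.p6 from 250 bases before to 50 after the start, searched on both strands, and they are printed 5′ to 3′ along the gene:
Isg15 (chr4:156200769-156201068, minus strand): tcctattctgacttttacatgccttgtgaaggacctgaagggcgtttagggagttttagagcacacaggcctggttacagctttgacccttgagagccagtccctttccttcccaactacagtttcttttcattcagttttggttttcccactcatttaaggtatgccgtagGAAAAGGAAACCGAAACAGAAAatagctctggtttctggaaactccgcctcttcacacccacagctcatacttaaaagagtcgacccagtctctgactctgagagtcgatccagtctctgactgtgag
Irgm1 (chr11:48871371-48871670, minus strand): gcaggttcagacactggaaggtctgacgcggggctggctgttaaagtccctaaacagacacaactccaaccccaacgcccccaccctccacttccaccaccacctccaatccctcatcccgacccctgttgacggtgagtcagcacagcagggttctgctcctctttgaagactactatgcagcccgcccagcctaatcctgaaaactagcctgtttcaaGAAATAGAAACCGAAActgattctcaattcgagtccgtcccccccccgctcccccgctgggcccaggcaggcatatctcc
Nfkbia (chr12:55492598-55492897, minus strand): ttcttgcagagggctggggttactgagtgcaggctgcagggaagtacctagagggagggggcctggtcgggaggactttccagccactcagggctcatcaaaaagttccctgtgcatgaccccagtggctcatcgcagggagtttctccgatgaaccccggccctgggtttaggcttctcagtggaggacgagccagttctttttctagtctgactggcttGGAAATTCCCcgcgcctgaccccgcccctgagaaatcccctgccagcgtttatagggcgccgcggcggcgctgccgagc
Cxcl2 (chr5:90903649-90903948, plus strand): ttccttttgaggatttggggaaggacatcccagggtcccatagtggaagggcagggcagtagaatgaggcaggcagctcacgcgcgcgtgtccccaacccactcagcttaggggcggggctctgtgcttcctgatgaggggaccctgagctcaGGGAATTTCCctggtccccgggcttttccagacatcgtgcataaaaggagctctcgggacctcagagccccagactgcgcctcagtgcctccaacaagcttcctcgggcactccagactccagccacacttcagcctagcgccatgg

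Isg15 held 3 ISRE cores in 1 run whose first base lay at -78, and Irgm1 held 2 from -30. The ISRE core stood in 22 of 34 interferon-stimulated genes with a promoter in the table (64.7%), against 407 of 9666 genes tested (4.21%), and in 0 of 21 NF-kB genes. It stood in 15 of the 25 interferon-stimulated genes with a promoter that were at least 2-fold lower (60%), so it was not more frequent among these than on the whole list. The kB motif stood in 4 of 21 NF-kB genes (19%), against 52 of 9666 (0.538%), and in 1 of 34 interferon-stimulated genes. The 2 motifs overlapped in 1 of 32851 promoters. These matches describe letters in this window, and whether a factor bound there was not measured.

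Isg15 was at 85.5 CPM (TNF-) against 22.5 CPM (TNF+) (log2 ratio -1.92, -2.11 to -1.74). Irf7, the factor that amplifies type I interferon, was at 115 and 28.7 CPM (interval of the log2 ratio -2.16 to -1.84), and Irgm1 at 54.7 and 14.5 CPM (log2 ratio -1.91, -2.14 to -1.67). Slfn5, a Schlafen family member, was at 162 and 31.7 CPM (log2 ratio -2.36, -2.50 to -2.22). Isg15 UMIs sat in few cells, with 50% in 5 TNF- and 15 TNF+ cells, and without the 2% of cells that held most of them its log2 ratio was -1.87. For Irf7 these were 16 and 154 cells and for Slfn5 18 and 68. Per cell thinned to 1000 UMIs, the list had a median of 3 UMIs in TNF- and 2 in TNF+, and 6.55% and 17.4% of cells had none of it, against 27.1% and 28.9% of T cells, which also use these genes.

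The size of this difference depended on which cells entered. Without the 2% of cells holding most UMIs of each gene, 21 genes were still at least 2-fold lower, with a median of -1.25. With only cells without a Ly6c2 UMI, 23 were, with a median of -1.15. In TNF- the summed list stood at 9882 CPM in cells with 3 or more Ly6c2 UMIs and at 3526 CPM in those with none, and in TNF+ at 3672 and 2070 CPM. By depth, cells under 10000 UMIs had the list at 3511 CPM (TNF-) against 2216 CPM (TNF+), and deeper cells at 5712 and 2259 CPM. The direction was therefore the same at each Ly6c2 level named and in both depth classes, and its size was larger in the deeper cells and in those with Ly6c2.

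Among the other lung cells, C1q-rich macrophages had 22 of 36 interferon-stimulated genes at least 2-fold lower and 0 higher (median -1.17), where 6.60% and 5.56% of all genes were. Alveolar macrophages had 3 of 37 lower and 5 higher (median 0.03), where 10.6% and 3.63% of all genes were. T cells had 1 of 36 lower and 3 higher (median 0.05), where 5.08% and 3.36% were. Synovial nonclassical monocytes chosen by the same rule, 138 in TNF- and 273 in TNF+, had 21 of 27 lower and 1 higher (median -1.86), where 14.0% and 7.67% were. Ratios were thus lower in both nonclassical monocyte sets and in C1q-rich macrophages, but with 1 library per group differences between cell types were not tested. C1q-rich macrophages numbered 71 in TNF- and 350 in TNF+, and alveolar macrophages 337 and 620. These lung macrophage groups had no limit on Treml4 or Adgre4. Of kept barcodes with 2 or more of these UMIs, 13 in TNF- and 265 in TNF+ had 20 or more C1q UMIs. With 4 or more alveolar macrophage UMIs there were 39 and 581. These could be a large part of the TNF+ macrophages and a smaller part of the TNF- ones. Their part in the ratios was not tested.

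**Figure D4:**
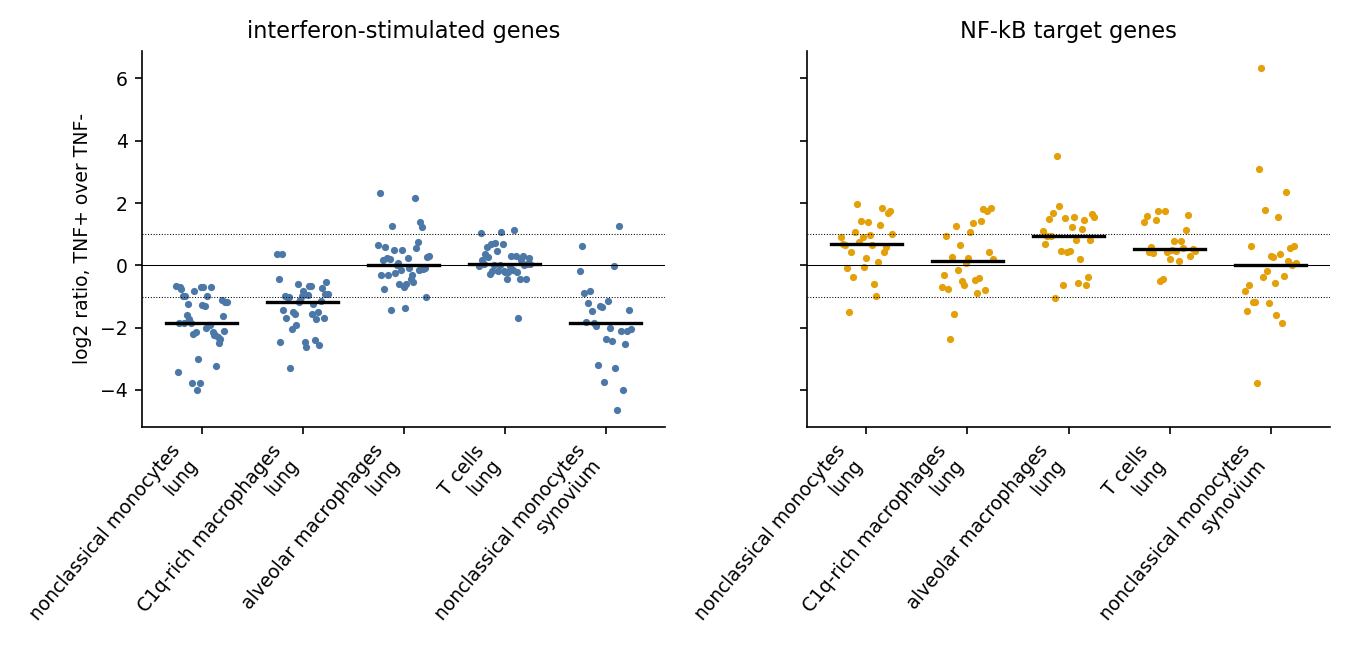
Log2 ratio of TNF+ over TNF- (y axis) of each interferon-stimulated gene (left) and NF-kB target gene (right) with 50 or more UMIs, in 5 groups of cells (x axis). Points are genes, bars are medians, and dotted lines mark 2-fold. Interferon-stimulated genes lie below 0 in lung and synovial nonclassical monocytes and C1q-rich macrophages, with medians of -1.84, -1.86 and -1.17, and around 0 in alveolar macrophages and T cells.

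NF-kB target genes lay above equality. Of 27 genes, 8 were at least 2-fold higher in TNF+, where 6.22% of all genes were, and 1 lower, with a median log2 ratio of 0.69. Nfkbia was at 423 CPM (TNF-) against 1099 CPM (TNF+) (log2 ratio 1.38, 1.30 to 1.45). Sod2, the mitochondrial superoxide dismutase, was at 114 and 406 CPM (log2 ratio 1.83, 1.69 to 1.97). Tnfaip3, the ubiquitin-editing brake on NF-kB also called A20, was at 74.7 and 241 CPM, and its partner Tnip1 at 91.5 and 304 CPM. Several feedback inhibitors, Nfkbia, Tnfaip3 and Tnip1, were thus among the higher genes. Cxcl2 was at 25.8 and 102 CPM, and the chemokine Ccl4 was the lower one at 36.6 and 12.9 CPM. Tnf was at 102 and 137 CPM and Il1b at 321 and 600 CPM, neither past 2-fold. Per cell thinned to 1000 UMIs, the list had a median of 4 UMIs in TNF- and 6 in TNF+, against 1 and 2 in T cells. The median log2 ratio of this list was 0.94 in alveolar macrophages, 0.54 in T cells, 0.15 in C1q-rich macrophages and 0.01 in synovial nonclassical monocytes.

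**Figure D5:**
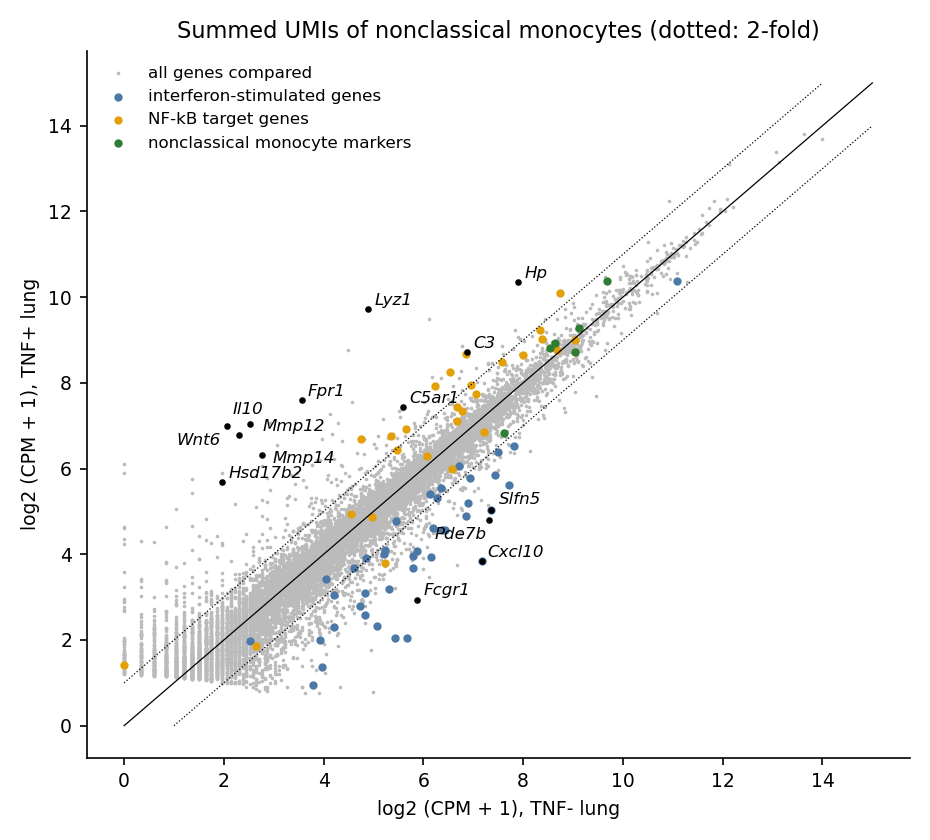
Level of each gene with 50 or more UMIs in nonclassical monocytes of TNF- lung (x axis) and TNF+ lung (y axis), as log2 of CPM + 1 of summed UMIs. Dotted lines mark 2-fold. Markers (green) lie near the diagonal, interferon-stimulated genes (blue) below it, most NF-kB targets (orange) above it, and Hp, Fpr1, Wnt6 and Il10 far above it.

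Among surface receptors for microbial and damage signals, the lectin Clec4e (Mincle) was at 71.0 CPM (TNF-) against 282 CPM (TNF+), Cd14, the lipopolysaccharide co-receptor, at 13.7 and 72.2 CPM, and Tlr2, for bacterial lipoproteins, at 43.7 and 104 CPM. On the list of 16 Toll-like receptors and adaptors, 3 were at least 2-fold higher (Cd14, Tlr2 and the kinase gene Irak3) and 2 lower, where 6.22% and 6.21% of all genes were. The chemokine scavenger receptor Ccrl2 was at 18.4 and 132 CPM. Of 9 Fc receptor genes, 1 was at least 2-fold lower, where 6.21% of all genes were, with a median log2 ratio of -0.63. Their summed level was 2433 CPM in TNF- and 2713 CPM in TNF+, most of it the shared signalling chain Fcer1g at 1816 and 2367 CPM. The lower gene was Fcgr1, the high-affinity IgG receptor, at 57.9 and 6.69 CPM (log2 ratio -3.11, -3.38 to -2.85).

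Of 28 monocyte transcription factors, 1 was at least 2-fold higher and 3 lower, where 6.22% and 6.21% of all genes were, and 22 of the 28 had a log2 ratio below 0, with a median of -0.28. Irf8, an interferon regulatory factor of monocyte development, was among the lower ones at 241 CPM (TNF-) against 112 CPM (TNF+). Pou2f2 was at 1050 and 860 CPM and Cebpb at 1635 and 2201 CPM, neither past 2-fold. MHC class II genes gave 0 of 14 in either direction, and of 15 MHC class I presentation genes 2 were at least 2-fold lower, where 6.21% of all genes were, the transactivator Nlrc5 at 74.9 and 21.5 CPM and the peptide transporter Tap1 at 112 and 45.8 CPM. Of 25 immediate-early genes, which also respond to tissue digestion, 5 were at least 2-fold lower, where 6.21% of all genes were, with Fos at 666 and 280 CPM and Atf3 at 213 and 82.3 CPM, and the part of digestion in this was not tested.

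Markers of other cells were present among the chosen cells to unequal degrees. The rule allowed no Cd3e, Cd79a or Cdh5 UMI and capped C1q and alveolar macrophage genes. The T cell, B cell, endothelial, C1q macrophage and alveolar macrophage lists were therefore held low in part by the choice of cells. The summed T cell list was at 17.6 CPM (TNF-) against 34.1 CPM (TNF+), the B cell list at 190 and 799 CPM and the endothelial list at 153 and 98.3 CPM. The epithelial list was higher, at 1680 and 2061 CPM, of which the surfactant gene Sftpc made up 1062 and 1473 CPM. On the B cell, NK cell, endothelial, fibroblast, epithelial and erythroid lists, 0 genes had 3 times as many UMIs per cell as T cells of the same library. Myeloid lists stood above T cells more often, with 10 of 10 neutrophil genes, 10 of 12 conventional dendritic cell genes, 6 of 14 C1q macrophage genes and 4 of 11 alveolar macrophage genes past that ratio, and 1 of 5 platelet genes. Summed, the neutrophil list was at 1853 and 1798 CPM, the dendritic cell list at 3487 and 3239 CPM, the C1q macrophage list at 2021 and 1818 CPM and the alveolar macrophage list at 448 and 564 CPM. The part of these other cells in the differences between genotypes was not tested. The part of doublets was not tested beyond leaving out the highest Scrublet scores, 8 of 351 TNF- and 267 of 3046 TNF+ cells. After that, 65 of 65 named genes past 2-fold were still past it in the same direction. Most cells stayed and many of these genes were named for their ratios, so this cannot show what doublets contributed.

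Synovial nonclassical monocytes gave the same measures in another tissue. Hp was at 169 CPM (TNF-) against 955 CPM (TNF+) synovium, Il10 at 5.41 and 66.7 CPM, Wnt6 at 4.51 and 20.5 CPM and C5ar1 at 63.1 and 139 CPM. The marker levels there were lower than in the lung, with Ace at 371 and 161 CPM and Nr4a1 at 574 and 96.7 CPM. Cxcl2 was at 85.2 and 6902 CPM in the synovium, against 25.8 and 102 CPM in the lung.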

How the data were processed

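Single-cell RNA libraries (10x Genomics 3′) of lung and synovium were measured, with 1 library per genotype and tissue. Per the labels, the authors used Cell Ranger 7.0.1 on mouse build mm10, and the deposited matrices hold raw UMI counts for 32285 genes. The labels and paper gave viability sorting and enzymatic digestion of tissue pooled per group.

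Barcodes with 500 or more UMIs and at most 20% mitochondrial UMIs were kept, with no upper limit on genes and no doublet removal. Scrublet (scanpy 1.11.5) was run as an alternative. UMIs were summed over chosen cells per library, scaled to CPM (1000000 in all), and compared as log2 ratios of TNF+ over TNF- for genes with 50 or more UMIs, with conditional binomial 95% intervals (exact Poisson for CPM, Clopper-Pearson for shares). Genes with 0 UMIs were set to a floor of 3 UMIs. No test was possible with 1 library per group. Intervals cover counting error only. Python 3.11.15, numpy 2.4.6, scipy 1.17.1 and pandas 2.3.3 were used, and the ratio code was tested on simulated data.

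Cells, gene lists and comparisons were chosen with earlier results of these data known. Named genes were the 15 highest and 15 lowest ratios among genes with at least 3 times as many UMIs per cell as T cells, leaving out Gm, Rik, mt-, Rpl and Rps symbols, plus the listed genes with the largest ratios, the markers and the rule genes. The 10 highest and 10 lowest against the classical monocyte rule, also foreseen, were left out because that rule found too few and mixed cells. Fpr1 and Hsd17b2 were named after their values were seen. Other comparison cells were chosen by UMIs of C1q genes, alveolar macrophage genes or Cd3e. T cells were also required to have no UMI of Cd79a, Csf1r, Treml4, Adgre4 or Cdh5. C1q-rich and alveolar macrophages had no limit on Treml4 or Adgre4. Shares of cells were given after thinning to 1000 UMIs. The alternatives were other quality limits, other Treml4, Adgre4 and C1q thresholds, other scalings, other count minimums, thinning before the rule, Scrublet, and leaving out cells with UMIs of other cell types. Leaving out cells with Ly6c2 UMIs, and leaving out the 2% of cells with most UMIs of a gene, were chosen after seeing the data.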

Additional observations from a re-analysis of the deposited data

Results flagged for a closer look

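2 genes were flagged because their ratios pointed in opposite directions in nonclassical monocytes of the 2 tissues, which was not tested. Dcstamp, a fusion receptor of osteoclasts and dendritic cells, had a log2 ratio of TNF+ over TNF- of 4.91 in the lung and -2.47 in the synovium. In the lung, 20 TNF+ cells held 50% of its UMIs. Retnla, a resistin-like protein of alternatively activated macrophages, had a log2 ratio of 5.20 in the lung, where 1 TNF+ cell held 50% of its UMIs. In the synovium it was -10.02, a value set by the floor of 3 UMIs because TNF+ synovial cells had 0.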

How the results depend on the processing

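No paired analysis was possible because each group was 1 library. No replicate could be left out for the same reason. The share of nonclassical monocytes in TNF- and TNF+ lung was 4.79% and 30.7% with limits of 200 to 5000 genes, 4.69% and 28.6% with 1 or more Treml4 and Adgre4 UMIs, and 3.34% and 20.8% without barcodes holding UMIs of other cell types. It was 36.9% and 65.0% of barcodes with a Csf1r UMI, and 3.95% and 31.5% of barcodes when the rule was applied after thinning to 2000 UMIs. The TNF+ share was above the TNF- share under each of these. Genes at least 2-fold lower numbered 1278 with a minimum of 20 UMIs, 320 with 200, and 469 without the 2% of cells with most UMIs of a gene. Genes at least 2-fold higher numbered 345 with a minimum of 200 UMIs. These shifts follow in part from testing more or fewer genes. The interferon-stimulated median was -1.15 without cells holding a Ly6c2 UMI and -1.25 without the 2% of cells, and ranged from -1.99 to -1.15 over all settings, with 21 to 33 genes at least 2-fold lower. The NF-kB median ranged from 0.58 to 0.86, with 7 to 10 genes higher. Of 65 named genes past 2-fold, 59 to 65 were still past it in the same direction under each setting, out of 62 to 65 with a value. Many of these genes were named for their ratios in these same cells, so this count describes settings only. Retnla turned to -0.98 with 1 or more Treml4 and Adgre4 UMIs, and Cxcl10 to 0.19 without the 2% of cells. The cause of both was not tested. In TNF- lung, 351 cells limit the precision of genes seen in few of them.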

Other observations

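Genes of lipid handling were uneven among nonclassical monocytes of the lung, with 7 of 24 at least 2-fold higher in TNF+ and 2 lower, where 6.22% and 6.21% of all genes were. The lipoprotein lipase gene Lpl was at 35.8 CPM (TNF-) against 141 CPM (TNF+), but 45 TNF+ cells held 50% of its UMIs. The cholesterol exporter Abca1 was at 18.1 and 47.8 CPM, and the scavenger receptor Msr1 was at 63.6 and 23.04 CPM. Of 21 vasoactive and matrix genes, 7 were higher and 0 lower, against the same shares of all genes, among them the growth factor gene Pdgfb at 56.0 and 126 CPM. Of 10 acute-phase genes 5 were higher and 0 lower, against these shares, with Lcn2, a siderophore-binding protein, at 16.6 and 154 CPM beside 4.30 and 133 CPM in T cells. Against the 6.22% of all genes that were higher and the 6.21% that were lower, genes higher and lower numbered 7 and 3 of 17 chemokines, 2 and 3 of 10 chemokine receptors, 7 and 2 of 29 purinergic, tetraspanin and checkpoint surface genes, 2 and 1 of 16 TNF family genes, 1 and 3 of 16 interleukin 1 family genes, and 2 and 1 of 23 lysosomal genes. They numbered 0 and 2 of 24 adhesion genes, 0 and 1 of 25 glycolysis genes, 3 and 0 of 19 cell cycle genes and 1 and 0 of 11 heat shock genes. Among marker lists of other cells they numbered 2 and 3 of 12 for conventional dendritic cells, 0 and 3 of 10 for neutrophils, 2 and 0 of 7 for NK cells, 0 and 5 of 5 for fibroblasts, 1 and 2 of 5 for platelets, and 0 and 0 of 4 for erythroid cells. T cells had 6 of 7 acute-phase genes higher and 0 lower, and 8 and 0 of 19 lipid-handling genes. They had 7 and 0 of 10 chemokines and 9 and 0 of 18 purinergic, tetraspanin and checkpoint genes. Of all genes in T cells, 3.36% were higher and 5.08% lower. Alveolar macrophages had 8 of 9 acute-phase genes higher and 0 lower, where 3.63% and 10.6% of all genes were. Higher ratios on these lists were thus not particular to nonclassical monocytes.

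Nonclassical monocytes held 8.76% of Ace UMIs of the TNF- lung library and 71.3% of those of the TNF+ library, while holding 3.98% and 24.8% of all UMIs. Most Ace UMIs of the TNF- lung thus lay in other cells, and endothelial cells were not among those compared. Per cell Ace was seen in 83.8% and 83.9% of nonclassical monocytes unthinned, with T cells at 4.11% and 5.37%. Over whole libraries the Ace UMIs of kept barcodes numbered 22901 in TNF- and 22593 in TNF+. These counts are not scaled, and the libraries held 96120328 and 155989523 UMIs in all. Like counts are thus not like levels, and relative to all UMIs Ace was lower in the TNF+ library.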
